A study of Mus musculus with 10 samples.

Results

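The genes described here encode axon guidance ligands and receptors: the Eph receptors and their ephrin ligands, the Slit ligands and their Robo receptors, and the netrins with their DCC-family and Unc5 receptors. They were taken as a list of 37 names out of the 46517 genes in the count tables, and all 37 were found. The list holds 9 EphA receptors, 5 EphB receptors, 5 A-class ephrins, 3 B-class ephrins, 3 Slits, 4 Robos, 2 netrins, the 2 DCC-family receptors Dcc and Neo1, and 4 Unc5 receptors. RNA was sequenced from cells of mouse malignant peripheral nerve sheath tumours (MPNST), sarcomas of the nerve sheath, grown as allografts in 5 models lettered A to E. Each model gave 1 library of sorted GFP+ cells, which express the CGD transgene in the series' terms, and 1 library of sorted GFP- cells, which do not. The study set GFP+ against GFP- cells within each model. Per the labels, wild-type cells and dead cells were removed by flow cytometry gates before sorting. The labels do not expand CGD. The sources used here do not give the strain, age, tumour genotype, host or promoter of the transgene, nor whether a model is 1 tumour or several. The groups are therefore 5 GFP+ libraries and 5 GFP- libraries, paired by model, and p-values of the GFP comparison measure the spread between these 5 pairs. The p-values between models take the 2 sorted populations of a model as its 2 measurements, with no replicate of any model.

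Ephrins are membrane-bound ligands, the A class anchored by a lipid and the B class spanning the membrane, and they bind Eph receptor tyrosine kinases on touching cells, so that both cells can signal. Slits are secreted proteins that repel axons and migrating cells through Robo receptors. Netrins are secreted laminin-related proteins that attract through DCC-family receptors and repel through Unc5 receptors. In peripheral nerve, ephrin-B on fibroblasts meets EphB2 on Schwann cells after injury and makes the Schwann cells migrate in cords.

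The libraries held 15978673 to 22082207 reads in genes. Levels are read counts scaled to a common library total (CPM) when a gene is compared between libraries, and CPM per kilobase of merged exon length (RPKM) when genes are compared with each other. Of the Schwann lineage markers, all 14 had a library above 1 CPM, and their summed level was 236 to 705 CPM in GFP+ and 189 to 292 CPM in GFP- libraries, higher in GFP+ cells in 5 of 5 pairs. Sox10, the defining factor of the lineage, was at most 0.434 CPM in models A and E. The 10 fibroblast markers summed to 18003 to 34168 CPM in GFP+ and 18142 to 41352 CPM in GFP- libraries. The 14 endothelial markers summed to 8.40 to 104 CPM in GFP+ and 8.84 to 153 CPM in GFP- libraries, with Pecam1 at most 1.31 CPM, and the 12 leukocyte markers summed to 9.67 to 20.3 CPM in GFP+ and 8.64 to 24.4 CPM in GFP- libraries. The libraries of model D stood apart. Xist, the RNA of the inactive X chromosome, had 103 CPM in its GFP+ library and 2.82 CPM in its GFP- library, and both expressed the Y-linked Eif2s3y, with 40.8 CPM in GFP+ cells, against 67.3 CPM in GFP- cells. In models B, C and E Xist was at 523 to 1049 CPM with Y-linked genes at most 1.64 CPM each. In E each of these Y-linked genes was higher in GFP+ cells, as with Eif2s3y at 1.64 CPM, against 0.11 CPM in GFP- cells. In model A Xist was at most 0.11 CPM. Eif2s3y of model A had 36.5 CPM in GFP+ cells, against 60.6 CPM in GFP- cells, so its lower GFP+ value was not particular to D. The counts of members, the differences of the members with an unadjusted p under 0.05 and the calls between models are given without the pair of model D as well.

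Of the 37 genes, 31 passed the filter on low counts and were tested among 13986 genes. Expression spanned all 9 groups. Of the 37 genes, the secreted ligands Slit3 and Ntn1 had the highest means per length. Slit3 averaged 88.9 ± 14.8 RPKM over the 10 libraries (SD), above 97.2% of the tested genes, and Ntn1 averaged 33.5 ± 9.44 RPKM, above 90.2%. Among the receptors, Ephb4 stood at 25.9 ± 15.4 RPKM and Neo1 at 23.9 ± 9.01 RPKM. The ephrin Efnb2 followed at 23.6 ± 22.0 RPKM, then Ntn4 at 14.4 ± 7.41, Efna5 at 13.2 ± 3.61 and Slit2 at 12.1 ± 2.47 RPKM. Apart from Slit3, neighbours in this order differed by less than the larger of their SDs over libraries. The lowest tested members were Epha6 at 0.203 ± 0.221 RPKM and Dcc at 0.322 ± 0.718 RPKM. The Robo receptors summed to 6.55 ± 2.12 RPKM in GFP+ and 9.97 ± 5.57 RPKM in GFP- libraries (n = 5 each). The Slit ligands summed to 93.7 ± 16.3 RPKM in GFP+ and 108 ± 12.3 RPKM in GFP- libraries, most of it Slit3. Slit2 alone, at 12.1 RPKM, was much nearer the Robo sum. Merged exons of Robo1 and Robo2 span 16511 and 16983 bases, against 25433 for Slit2 and 6067 for Slit3, and RPKM divides by this length.

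**Figure D1:**
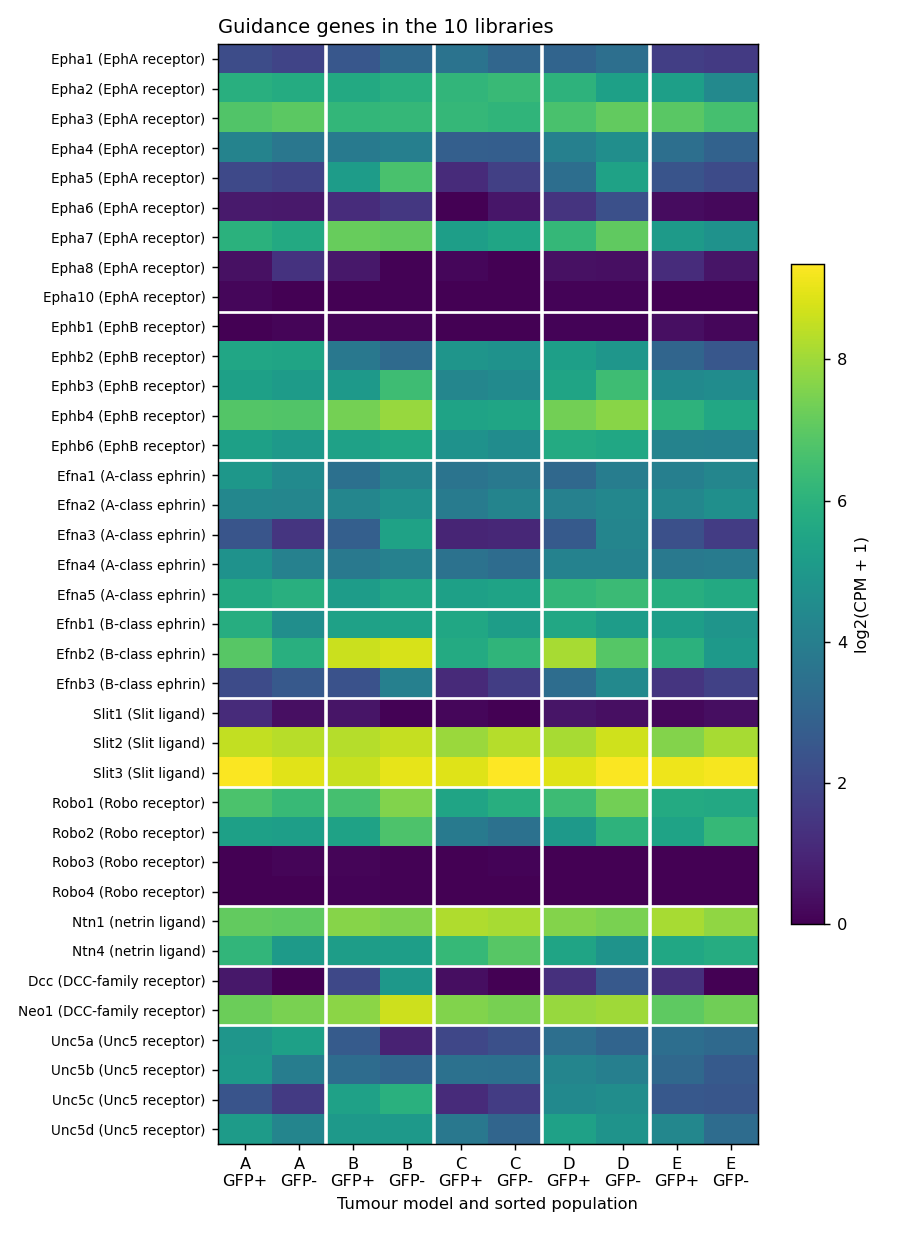
Heat map of the 37 guidance genes (rows, by family) in the 10 libraries (columns, GFP+ left of GFP- within each model), coloured by log2(CPM + 1). The rows of Slit3 and Slit2 are bright in every library, at 374 to 652 CPM and 193 to 409 CPM, and the 6 untested genes stay dark, at or below 1.59 CPM.

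The 6 untested members were at or near 0 in these libraries. Epha8 had 0 to 31 reads per library and Slit1 0 to 22 reads. Ephb1 had 0 to 6 reads, Epha10 and Robo3 0 to 2 reads each, and Robo4, the endothelial Robo, 0 to 1 read. Robo3 guides commissural axons across the midline. A count of 0 in these libraries allows up to 3 reads of the library total, so the lowest of these genes were not detectable at this depth in several libraries.

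Slit3, a secreted Slit best known for angiogenesis and diaphragm development, had 630.0, 374, 479, 470.4 and 554 CPM in GFP+ cells of models A to E, against 487, 514, 652, 633 and 603 CPM in GFP- cells. It was higher in GFP+ cells in model A and lower in the other 4 models, and the groups overlapped. Its log2 difference, GFP+ minus GFP-, was -0.25 ± 0.15 (SE), with an adjusted p of 0.652 in edgeR's quasi-likelihood test with Benjamini-Hochberg adjustment. Between the highest and the lowest model it spanned 1.32-fold (edgeR adjusted p = 0.471).

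Slit2, which repels commissural axons from the midline, had 360.2, 313, 244, 281 and 193 CPM in GFP+ cells of models A to E, against 324, 366, 315, 409 and 276 CPM in GFP- cells. As with Slit3, model A had the higher GFP+ value and the other 4 models the lower one, with overlap between the groups.

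Across the 5 tumour models the guidance genes differed widely. An F test of the model terms in the same edgeR fit called 24 of the 31 tested members (77.4%) at an adjusted p under 0.05, against 54.7% of all tested genes. The 2 libraries of a model are the 2 sorted populations of the same tumour model, so this test compares these tumours and not classes of tumour. A model's level was taken as the mean log2 CPM of its 2 libraries, with a prior count of 2, and every fold between models is the highest of these over the lowest. The median fold was 3.15 over the members, against 1.91 over all tested genes. The members were chosen with earlier results of these data known, so these shares and folds are description only. Model B was the highest for 11 members, A and D for 7 each, C for 5 and E for 1. Model C was the lowest for 15 members, E for 10, B for 3, D for 2 and A for 1. The same counts were not made over all tested genes, so these cannot be read as particular to the guidance genes. Without the pair of model C, 15 of 31 members were called (48.4%), against 28.6% of all genes. Leaving out the other pairs gave 23 of 31 members without A (53.5% of all genes), 24 of 30 without B (48.2%), 21 of 30 without D (50.6%) and 17 of 31 without E (38.2%). The 10 members called in each of these 5 fits as well as in the full one were Epha5, Epha7, Ephb2, Ephb4, Ephb6, Efnb2, Efnb3, Ntn1, Unc5b and Unc5c. How many of all tested genes were called in each fit was not counted. Of the 24 calls, 9 were lost without C (Epha2, Epha3, Epha4, Ephb3, Efna3, Robo1, Robo2, Ntn4 and Unc5d) and 8 without E (Epha1, Epha2, Epha6, Ephb3, Efna3, Robo1, Ntn4 and Neo1). Without D, 3 were lost (Epha6, Efna5 and Ntn4), without A 2 (Epha2 and Unc5a) and without B 2 (Epha3 and Ntn4).

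**Figure D2:**
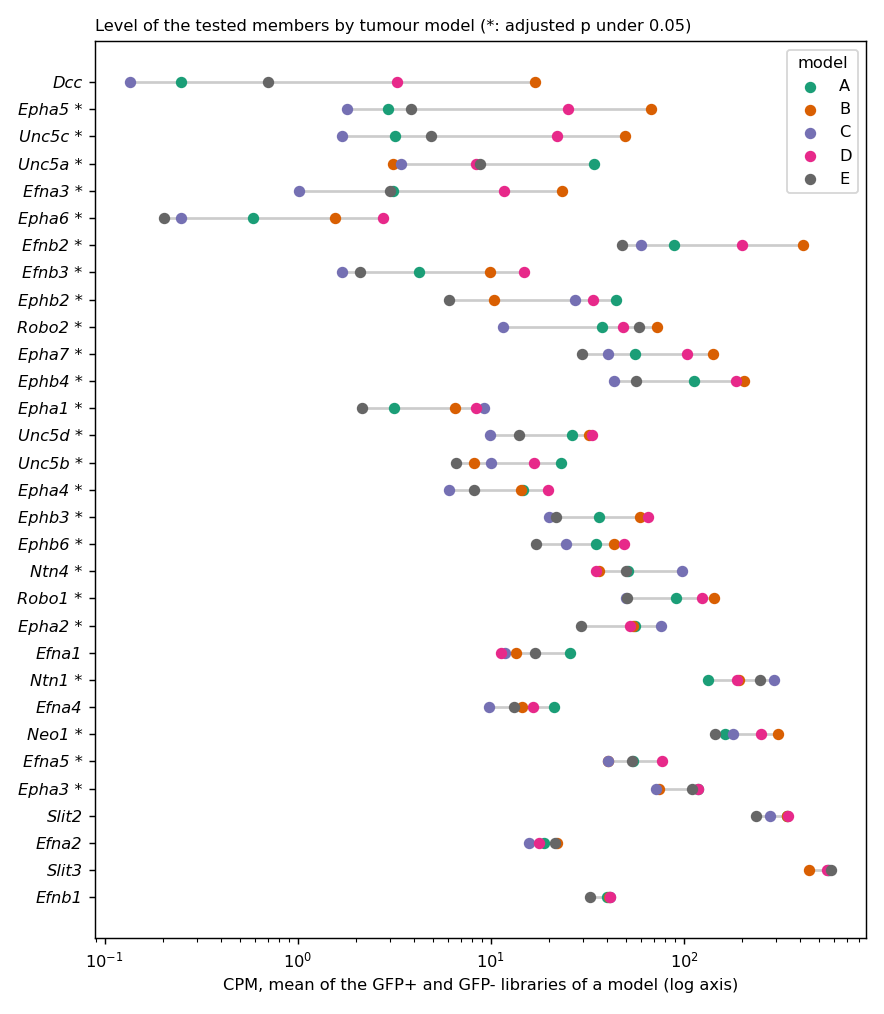
CPM of each tested member in the 5 models on a log axis, each point the mean of the GFP+ and GFP- libraries of a model, with the members ordered by the fold between models and an asterisk where the edgeR adjusted p between models was under 0.05. Epha5 spreads widely, with 67.7 CPM in model B and 1.81 CPM in model C, and Efnb1 little, with 41.4 CPM in C and 32.7 CPM in E.

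Among the receptors for B-class ephrins, Ephb2 had the smallest p between models. Ephb2 (ENSMUSG00000028664, mm10 chr4:136647539-136835988, minus strand), the receptor that meets ephrin-B in injured nerve, had 45.6, 12.3, 28.2, 38.1 and 7.33 CPM in GFP+ cells of models A to E, against 43.5, 8.33, 26.4, 29.4 and 4.77 CPM in GFP- cells. Both populations were high in A, D and C and low in B and E, 7.41-fold apart between models A and E (edgeR adjusted p = 0.00046). GFP+ cells were above GFP- cells in all 5 models, by a log2 difference of 0.30 ± 0.12 (edgeR adjusted p = 0.517), and 0.29 without the pair of model D.

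Ephb4 (ENSMUSG00000029710, mm10 chr5:137350109-137378669, plus strand), the ephrin-B2 receptor of veins, showed another order. It had 115, 168, 42.0, 162 and 64.9 CPM in GFP+ cells of models A to E, against 110.1, 239.5, 44.6, 208 and 47.7 CPM in GFP- cells. Models B and D were high and model C low in both populations, 4.62-fold between B and C (edgeR adjusted p = 0.00159). Its ligand Efnb2 (ENSMUSG00000001300, mm10 chr8:8617434-8661242, minus strand), an artery marker in vessels, had 119.9, 384, 51.5, 281 and 63.4 CPM in GFP+ cells, against 58.1, 442, 68.5, 117 and 31.8 CPM in GFP- cells. Efnb2 was also highest in models B and D, with 9.15-fold between models B and E (edgeR adjusted p = 0.00364). The endothelial marker sum was highest in model B as well, with 104 CPM in GFP+ cells, against 153 CPM in GFP- cells. Of this Eng gave 75.9 CPM in GFP+ cells, against 119.7 CPM in GFP- cells, while Pecam1 and Cdh5 were at most 1.31 and 1.13 CPM in any library. In model D the endothelial sum was 16.9 CPM in GFP+ cells, against 23.3 CPM in GFP- cells. The part of any endothelial cells in the Efnb2 and Ephb4 levels was not tested.

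Ephb6 (ENSMUSG00000029869), an Eph receptor without kinase activity, had 38.4, 40.0, 26.4, 51.3 and 17.2 CPM in GFP+ cells of models A to E, against 31.9, 46.9, 22.6, 46.9 and 16.8 CPM in GFP- cells. Models D and B were the highest and model E the lowest, 2.87-fold apart between D and E (edgeR adjusted p = 0.00201).

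Of the EphA receptors, Epha5 and Epha7 had the smallest p. Epha5 (ENSMUSG00000029245, mm10 chr5:84054761-84417382, minus strand), a receptor of the developing brain, had 3.22, 34.6, 1.19, 9.49 and 4.34 CPM in GFP+ cells of models A to E, against 2.67, 101, 2.42, 40.4 and 3.36 CPM in GFP- cells. Model B and then model D stood far above the others, 32.6-fold between B and C (edgeR adjusted p = 0.00222). Epha7 (ENSMUSG00000028289), which helps shape cortical and retinal maps, had 61.2, 145, 36.8, 74.9 and 32.9 CPM in GFP+ cells, against 49.7, 136, 44.2, 132 and 26.5 CPM in GFP- cells. Its 2 highest models were again B and D, 4.75-fold between B and E (edgeR adjusted p = 0.00292).

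The other EphA receptors and Ephb3 were called between models too. Epha2, a receptor widely raised in epithelial cancers, ranged from 38.1 to 70.6 CPM in GFP+ libraries and 20.2 to 80.7 CPM in GFP- libraries, with an edgeR adjusted p of 0.048 between models, and it was called in the fits without B and without D but not without A, C or E. Epha3 ranged from 73.0 to 123 CPM in GFP+ libraries and 68.6 to 136 CPM in GFP- libraries, and its models were 1.65-fold apart. Epha4, which binds ephrins of both classes, ranged from 6.19 to 17.1 CPM in GFP+ libraries and 6.0 to 23.7 CPM in GFP- libraries, highest in D and lowest in C. Epha1 and Epha6 were lower still, at most 10.9 CPM and 3.88 CPM in any library. Ephb3, which shares ephrin-B ligands with Ephb2, ranged from 18.4 to 43.4 CPM in GFP+ libraries and 21.4 to 86.3 CPM in GFP- libraries. Its top values were those of the GFP- cells of B and D, as with Epha5 and Robo1. Robo1 ranged from 43.0 to 104 CPM in GFP+ libraries and 48.9 to 191 CPM in GFP- libraries. None of these had an unadjusted p under 0.05 between GFP+ and GFP- cells, Ephb3 coming nearest at a log2 difference of -0.55 ± 0.24 (edgeR unadjusted p = 0.0555).

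The netrin side differed between models both in the ligand and in the receptors. Ntn1 (ENSMUSG00000020902, mm10 chr11:68209364-68400823, minus strand), the founding netrin, had 137, 199.8, 302, 197 and 277 CPM in GFP+ cells of models A to E, against 128, 186, 278, 177 and 220.2 CPM in GFP- cells. It was highest in C and E, the models that were lowest for most other members, and lowest in A, 2.18-fold between C and A (edgeR adjusted p = 0.00242). Ntn4, a basement membrane netrin, had 69.5, 36.1, 75.5, 43.2 and 46.2 CPM in GFP+ cells, against 33.1, 36.5, 119, 26.7 and 54.2 CPM in GFP- cells. Model C was the highest for Ntn4 as well, with 2.79-fold between C and D (edgeR adjusted p = 0.0385). That call was lost without the pair of model B, C, D or E, where the edgeR adjusted p was 0.0519, 0.33, 0.0599 and 0.0549.

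Among the netrin receptors, Unc5c (ENSMUSG00000059921, mm10 chr3:141465216-141834924, plus strand), needed for granule cell positioning in the cerebellum, had 4.33, 39.5, 1.19, 20.8 and 5.02 CPM in GFP+ cells of models A to E, against 2.0, 59.6, 2.2, 23.3 and 4.72 CPM in GFP- cells. It was highest in model B and next in model D in both populations, 28.1-fold between B and C (edgeR adjusted p = 0.000776). Unc5a, its neuronal relative, was highest in model A and lowest in model B, 14.8-fold apart (edgeR adjusted p = 0.00813), and was not called without the pair of model A (edgeR adjusted p = 0.104). Neo1, which binds netrins and repulsive guidance molecules, had 151, 211, 188, 237 and 129.6 CPM in GFP+ cells, against 176, 401, 172, 260.0 and 159 CPM in GFP- cells. Its highest value was in the GFP- cells of model B, and the models were 2.02-fold apart between B and E (edgeR adjusted p = 0.0294). Without the pair of model E the Neo1 call was lost (edgeR adjusted p = 0.093).

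Efna5, a repulsive A-class ephrin of retinal mapping, had 50.4, 35.2, 38.9, 72.2 and 56.7 CPM in GFP+ cells of models A to E, against 58.7, 45.1, 41.8, 80.9 and 50.4 CPM in GFP- cells. Model D was the highest and model B the lowest for Efna5, 1.92-fold apart (edgeR adjusted p = 0.00809). Without the pair of model D the Efna5 call was lost (edgeR adjusted p = 0.079). The 7 members not called between models in the full fit were Dcc, Efna1, Efna2, Efna4, Efnb1, Slit2 and Slit3. That set holds both tested Slits and 3 of the 5 A-class ephrins, but part of it turned on 1 pair. Slit2 was called without the pair of model A (edgeR adjusted p = 0.0276) and Dcc without that of model E (edgeR adjusted p = 0.0486). Efna1 and Efna4 were called without the pair of model B (edgeR adjusted p = 0.0434 and 0.0308). In the full fit their edgeR adjusted p was 0.0547 and 0.0529.

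Between GFP+ and GFP- cells, no guidance gene and none of the 13986 tested genes (0%) passed an adjusted p under 0.05 in edgeR's quasi-likelihood test with Benjamini-Hochberg adjustment. The members were chosen with earlier results of these data known, so their shares are set beside those of all genes as description only. At an unadjusted p under 0.05 there were 9 of 31 members (29.0%), against 1257 of all tested genes (8.99%). Of these, 4 members were higher in GFP+ cells (12.9%, against 5.50% of all genes): Unc5d, Ephb2, Efnb1 and Unc5b. The other 5 were lower in GFP+ cells (16.1%, against 3.49% of all genes): Efnb3, Slit2, Efna2, Robo2 and Epha5. DESeq2 called 195 genes (1.39%) and 1 member, Efnb3. Over all 31 members the median log2 difference was -0.13, with 12 positive and 19 negative. Over all 13986 tested genes it was -0.0028, with 6898 positive and 7088 negative. Without the pair of model D, 2 of 30 members (6.67%) remained at an unadjusted p under 0.05, Efnb3 and Unc5d. That share was near the 5.73% of all genes. Without the other pairs in turn, it was 11 of 31 without A (35.5%, against 10.5% of all genes) and 6 of 30 without B (20%, against 5.69%). It was 7 of 31 without C (22.6%, against 9.71%) and 4 of 31 without E (12.9%, against 7.82%).

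**Figure D3:**
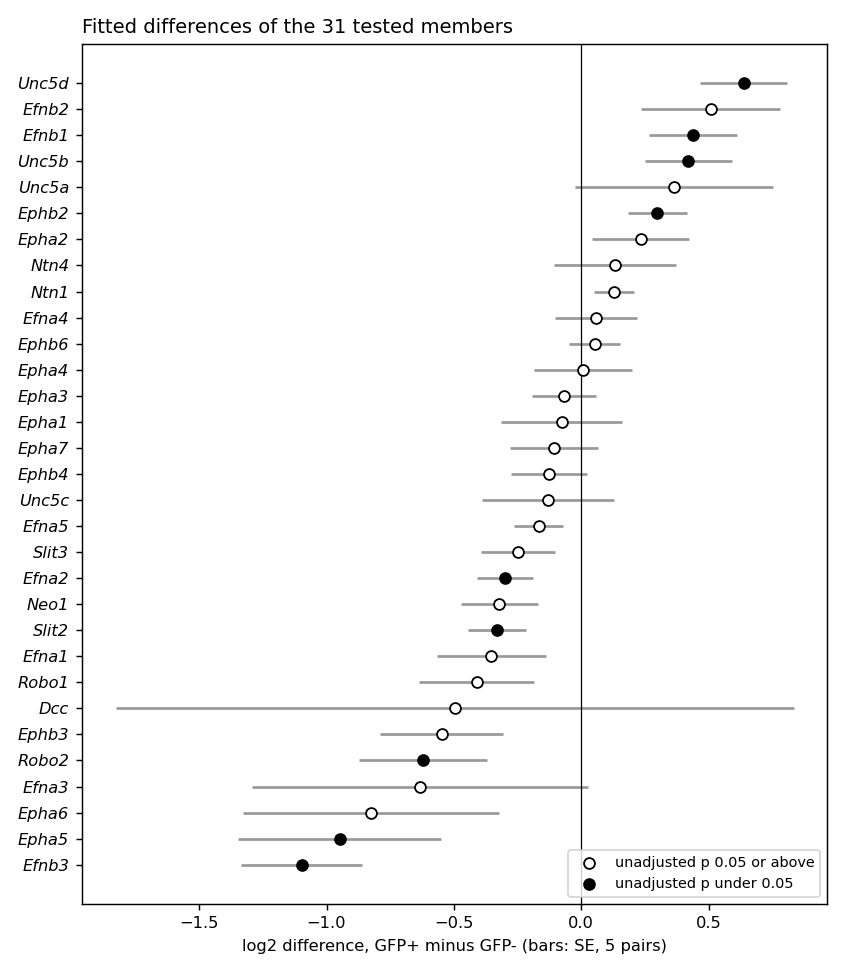
Log2 difference of GFP+ minus GFP- cells for the 31 tested members in order of size, with standard errors from the edgeR fit over 5 pairs and filled points for an unadjusted p under 0.05. Efnb3 lies lowest, at -1.10, Unc5d highest, at 0.64, and Dcc has the widest error, 1.33 on either side of -0.50.

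Efnb3 (ENSMUSG00000003934, mm10 chr11:69554092-69560205, minus strand), the transmembrane ephrin of the spinal cord midline, had the smallest p. It had 3.39, 4.15, 1.14, 9.21 and 1.69 CPM in GFP+ cells of models A to E, against 5.09, 15.6, 2.26, 20.3 and 2.49 CPM in GFP- cells. GFP+ cells were lower in 5 of 5 models, although the groups overlapped. The GFP+ value of model A, for example, lay above the GFP- values of C and E. The log2 difference was -1.10 ± 0.24, with an unadjusted p of 0.00203 and an adjusted p of 0.332 by edgeR. DESeq2 gave an adjusted p of 0.0148, and over the 13 alternatives the adjusted p ran from 0.0148 to 1. The difference was -1.06 without the pair of model D and ran from -1.24 to -0.85 over the pairs left out in turn. Efnb3 also differed between models, 8.03-fold between D and C (edgeR adjusted p = 0.00253).

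Unc5d (ENSMUSG00000063626, mm10 chr8:28646717-29219636, minus strand), an Unc5 receptor that binds FLRT adhesion proteins as well as netrin, was the member most shifted the other way. It had 34.4, 32.3, 12.5, 39.5 and 19.2 CPM in GFP+ cells of models A to E, against 17.9, 31.7, 7.37, 27.2 and 8.84 CPM in GFP- cells. GFP+ cells were higher in 5 of 5 models, as a ratio by little in model B and by most in model E, and the groups overlapped. The log2 difference was 0.64 ± 0.17, with an unadjusted p of 0.00638 and an edgeR adjusted p of 0.384. It was 0.68 without the pair of model D and ran from 0.50 to 0.81 over the pairs left out.

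Unc5b (ENSMUSG00000020099, mm10 chr10:60762593-60831581, minus strand), the Unc5 receptor of vessel tips, had 31.2, 9.0, 10.1, 18.2 and 7.91 CPM in GFP+ cells of models A to E, against 14.8, 7.29, 9.91, 15.2 and 5.31 CPM in GFP- cells. It was higher in GFP+ cells in 5 of 5 models, with the groups overlapping and model A setting much of the size. Its log2 difference of 0.42 ± 0.17 (edgeR adjusted p = 0.533) was 0.25 without the pair of model A and 0.48 without that of model D. The summed RPKM of the 4 Unc5 receptors was higher in GFP+ cells in 5 of 5 pairs, at 8.91 ± 4.72 in GFP+ and 7.48 ± 4.16 in GFP- libraries. Singly, this held for Unc5b and Unc5d, while Unc5a was higher in GFP+ cells in 3 of 5 pairs and Unc5c in 2 of 5. The sum of Dcc and Neo1 was higher in 1 of 5 pairs, at 21.1 ± 5.03 in GFP+ and 27.4 ± 12.7 in GFP- libraries. The Schwann lineage marker sum was also higher in GFP+ cells in 5 of 5 pairs, and its part in the Unc5 values was not tested. In such bulk libraries, fewer cells of a type and less RNA per cell cannot be told apart.

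Efnb1 (ENSMUSG00000031217, mm10 chrX:99136130-99148991, plus strand), the X-linked ephrin-B whose human gene is mutated in craniofrontonasal syndrome, had 56.0, 40.2, 46.4, 47.4 and 37.1 CPM in GFP+ cells of models A to E, against 23.8, 41.4, 36.3, 35.2 and 28.2 CPM in GFP- cells. GFP+ cells were higher in 4 of 5 models and nearly level in model B, and the groups overlapped. Its log2 difference was 0.44 ± 0.17 (edgeR adjusted p = 0.52), 0.24 without the pair of model A and 0.45 without that of model D.

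Both tested Slits and both tested Robos had negative log2 differences, none with an adjusted p under 0.05 by edgeR. Slit2 (ENSMUSG00000031558, mm10 chr5:47983138-48307733, plus strand), whose values stand above, had a log2 difference of -0.33 ± 0.12 (edgeR adjusted p = 0.476), and -0.26 without the pair of model D. Robo2 (ENSMUSG00000052516, mm10 chr16:73891839-74411825, minus strand), a Slit receptor also known from ureter budding, had 38.3, 41.0, 13.0, 32.3 and 42.0 CPM in GFP+ cells of models A to E, against 37.3, 105, 10.2, 64.7 and 75.4 CPM in GFP- cells. Robo2 was lower in GFP+ cells in models B, D and E, nearly level in A and higher in C, with overlap between the groups. Its log2 difference was -0.62 ± 0.25 (edgeR adjusted p = 0.529), -0.41 without the pair of model B and -0.50 without that of model D. Robo1, the other tested Slit receptor, had a log2 difference of -0.41 ± 0.23 (edgeR adjusted p = 0.636). The summed RPKM of the Slits and that of the Robos were each higher in GFP+ cells in 1 of 5 pairs, in model A.

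Efna2 (ENSMUSG00000003070, mm10 chr10:80179482-80190010, plus strand), an A-class ephrin of visual mapping, had 19.1, 18.5, 13.9, 16.5 and 18.9 CPM in GFP+ cells of models A to E, against 18.4, 25.5, 17.7, 19.2 and 24.1 CPM in GFP- cells. It was nearly level in model A and lower in GFP+ cells in the other 4 models, with overlap between the groups. Its log2 difference was -0.30 ± 0.11 (edgeR adjusted p = 0.479), and -0.30 without the pair of model D. For Epha5, whose values stand above, the log2 difference of -0.95 ± 0.40 (edgeR adjusted p = 0.552) was -0.56 without the pair of model D. Epha5 was lower in GFP+ cells in models B, C and D, while models A and E had the higher GFP+ value.

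**Figure D4:**
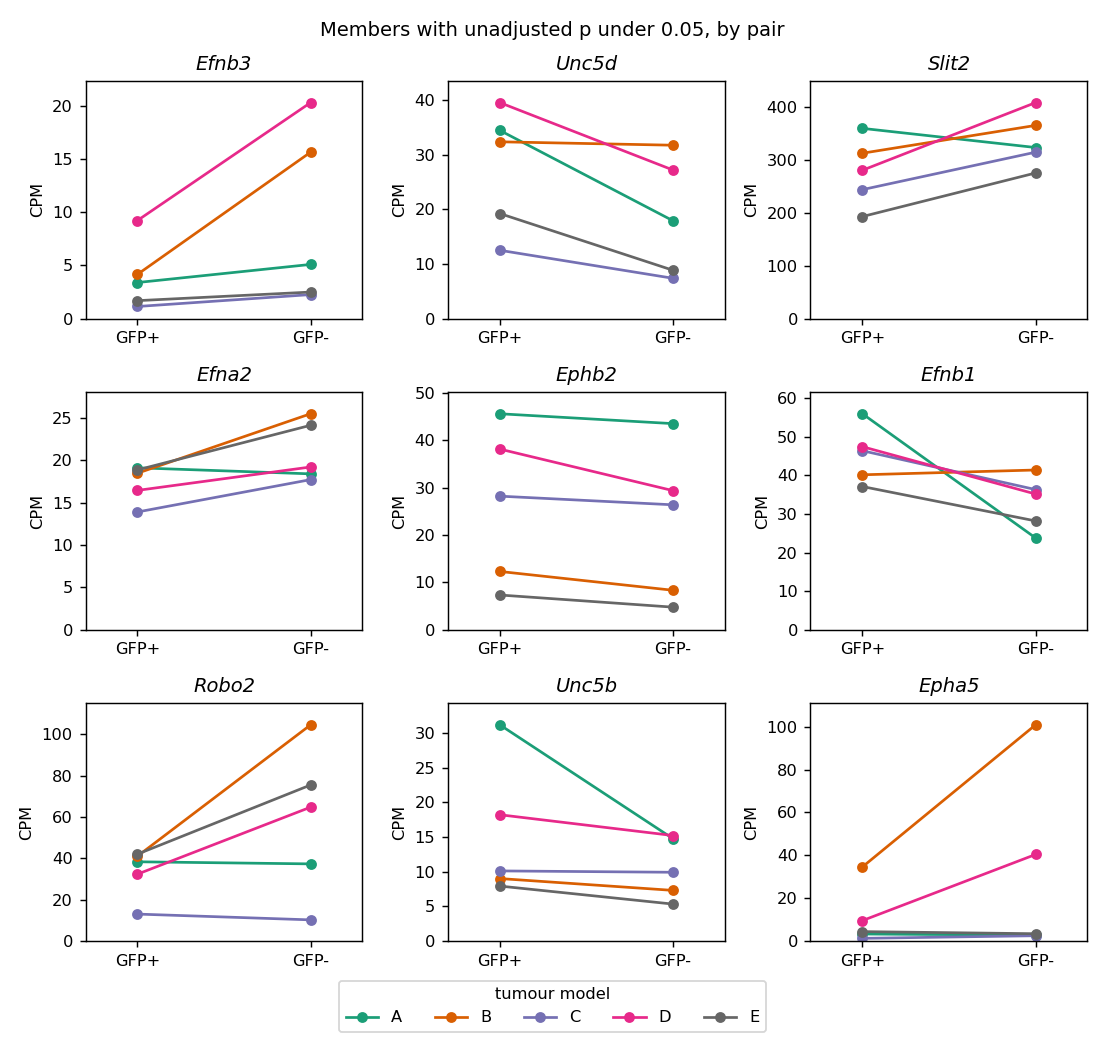
CPM in the GFP+ and the GFP- library of each model for the members with an unadjusted p under 0.05, 1 line per model, on linear axes from 0. Unc5d, Unc5b and Ephb2 are above their GFP- value in all 5 models and Efnb3 is below it in all 5.

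The same direction in all 5 models was seen for 5 members. Ephb2, Ntn1, Unc5b and Unc5d were higher in GFP+ cells in 5 of 5 pairs (12.9% of tested members, against 6.51% of all genes). Efnb3 alone was lower in 5 of 5 (3.23%, against 3.37% of all genes). No member had all GFP+ libraries on 1 side of all GFP- libraries (0 of 31, against 0.179% of all genes).

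The 6 promoters below are those of all members with an unadjusted p under 0.05 that have a single start in the RefSeq table, and they are shown to let the members be compared before their starts. Each is from RefSeq on build GRCm38.p6, read 5′ to 3′ on the gene's strand, with GC boxes (GGGCGG, or CCGCCC on the other strand) and the TATA box TATAAA in capitals. The windows are chr5:47982905-47983137 (plus) for Slit2, chr10:80179232-80179481 (plus) for Efna2, chr4:136836013-136836262 (minus) for Ephb2, chrX:99135811-99136060 (plus) for Efnb1, chr5:84417383-84417632 (minus) for Epha5 and chr10:60831582-60831831 (minus) for Unc5b. The Slit2 window is 233 bases, because its last 17 bases lie in an annotated exon.
Slit2: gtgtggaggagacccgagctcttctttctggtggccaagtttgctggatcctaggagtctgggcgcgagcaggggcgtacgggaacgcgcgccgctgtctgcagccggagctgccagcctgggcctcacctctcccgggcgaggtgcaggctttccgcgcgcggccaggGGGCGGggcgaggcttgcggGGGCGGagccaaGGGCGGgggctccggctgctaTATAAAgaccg
Efna2: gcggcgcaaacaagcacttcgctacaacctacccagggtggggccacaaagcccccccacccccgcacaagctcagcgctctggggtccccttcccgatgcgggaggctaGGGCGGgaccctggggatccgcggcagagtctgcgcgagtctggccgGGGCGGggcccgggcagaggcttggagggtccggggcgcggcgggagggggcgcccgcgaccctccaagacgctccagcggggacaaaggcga
Ephb2: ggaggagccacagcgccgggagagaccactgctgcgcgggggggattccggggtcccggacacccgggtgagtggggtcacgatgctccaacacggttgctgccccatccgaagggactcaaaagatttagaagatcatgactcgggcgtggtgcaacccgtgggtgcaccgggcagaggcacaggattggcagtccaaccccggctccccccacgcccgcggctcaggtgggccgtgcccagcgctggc
Efnb1: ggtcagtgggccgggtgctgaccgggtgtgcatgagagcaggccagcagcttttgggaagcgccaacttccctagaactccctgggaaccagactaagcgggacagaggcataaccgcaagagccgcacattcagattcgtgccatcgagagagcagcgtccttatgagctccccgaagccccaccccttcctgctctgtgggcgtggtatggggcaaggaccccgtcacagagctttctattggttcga
Epha5: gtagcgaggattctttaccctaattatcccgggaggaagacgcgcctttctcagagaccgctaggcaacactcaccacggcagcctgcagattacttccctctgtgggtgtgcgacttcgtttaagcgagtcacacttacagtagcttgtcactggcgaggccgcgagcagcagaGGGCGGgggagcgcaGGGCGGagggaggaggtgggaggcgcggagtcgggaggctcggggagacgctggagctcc
Unc5b: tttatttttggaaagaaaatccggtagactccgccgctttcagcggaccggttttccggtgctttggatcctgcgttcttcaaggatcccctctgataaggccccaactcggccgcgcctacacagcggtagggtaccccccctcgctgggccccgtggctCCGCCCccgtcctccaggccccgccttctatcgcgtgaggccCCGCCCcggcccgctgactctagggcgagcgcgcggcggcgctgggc
Slit2 has 3 GC boxes and 1 TATA box in its window, and Efna2, Epha5 and Unc5b have 2 GC boxes each and no TATA box. Ephb2 and Efnb1 have neither, and their RefSeq starts lie before the start of the GENCODE gene. Robo2, with 3 starts in the table and not printed, has no GC box before any of them. Over the 32 members with a promoter in the table, the median GC content of the 250 bases before the start was 65.2%, against 52.0% for all 27025 genes in it, and the median number of CpG was 18, against 6. A GC box on either strand was found in 23 of 32 members (71.9%), against 32.9% of all promoters, a TATA box in 2 (6.25%), against 13.0%, and the E-box CACGTG in 2 (6.25%), against 6.05%. Each GC box holds a CpG itself, and a match describes the sequence only.

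Within single models the differences of the members pointed in different directions (log2 CPM with the prior count of 2). In model A, 7 of 31 members were more than 2-fold higher in GFP+ cells (22.6%, against 4.93% of all genes) and 0 were more than 2-fold lower (1.79% of all genes). In models B and D, 6 members each were more than 2-fold lower (19.4% in each, against 4.77% of all genes in B and 3.93% in D) and 1 each was more than 2-fold higher (3.23%, against 6.48% in B and 3.89% in D). Model C had 1 higher (2.67% of all genes) and 1 lower (1.44%), and model E had 2 higher (5.38%) and 0 lower (0.837%). The median log2 difference of the members was 0.27, -0.36, -0.10, -0.36 and 0.23 in models A to E, against 0.02, 0.09, 0.02, 0.06 and -0.01 for all genes. These are single libraries with no replicate within a model, so no test was made. The 5 members more than 2-fold lower in both B and D were Epha5, Efna3, Efnb3, Robo2 and Dcc, a set named after its values were seen. The share of all genes lower in both was not counted. Membership turned on the cut: Robo2 passed in D at a log2 difference of -1.00016. Ephb3 fell short in D at -0.988, and Robo1 in B and D at -0.988 and -0.967.

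**Figure D5:**
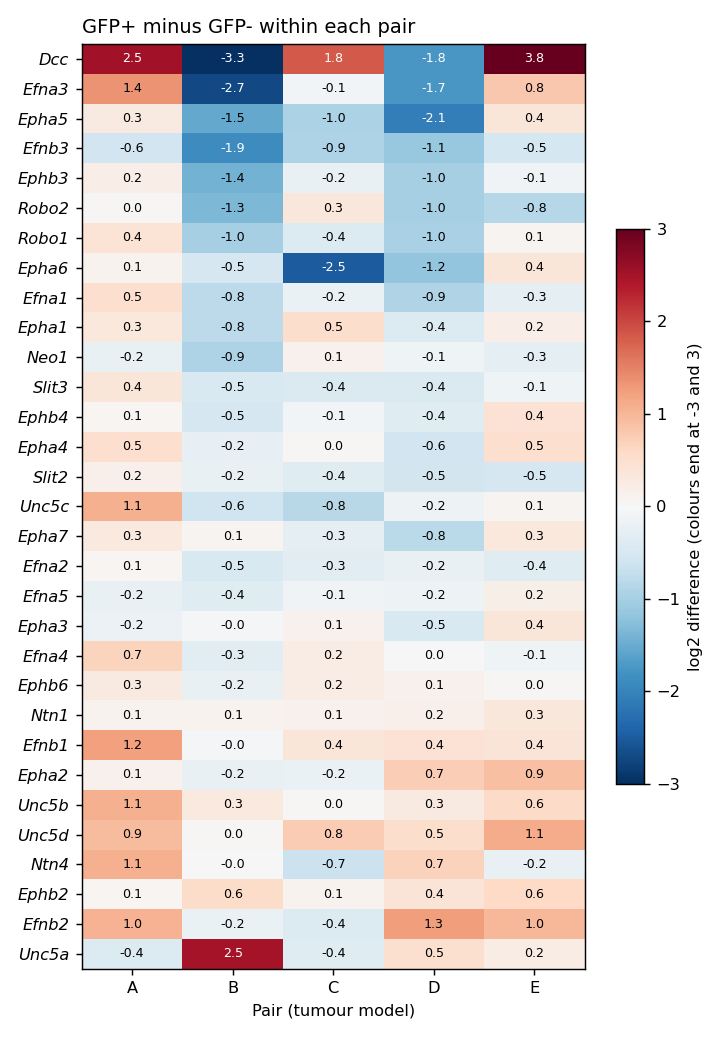
Log2 difference of GFP+ minus GFP- cells (colour and printed value) of each tested member (rows) in each of the 5 models (columns), 1 library against 1. Columns B and D hold more blue cells than A and E, with medians over members of 0.27, -0.36, -0.10, -0.36 and 0.23 for models A to E.

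Sums of other cell markers differed between the populations too, in directions that varied by model. The pericyte markers summed to 439, 365, 165, 451 and 251 CPM in GFP+ cells of models A to E, against 399, 997, 152, 650 and 329 CPM in GFP- cells, so they were lower in GFP+ cells in B, D and E. The fibroblast markers summed to 33926, 34168, 19515, 29261 and 18003 CPM in GFP+ cells, against 24668, 41352, 20385, 40970 and 18142 CPM in GFP- cells. Their GFP+ sum was the higher one in A and the lower one in the other 4 models, by least in E. The 8 epithelial markers summed to 102, 92.5, 238, 27.4 and 219.9 CPM in GFP+ cells, against 222, 9.01, 266, 20.7 and 132 CPM in GFP- cells. Model B had the widest epithelial gap as a ratio, with the GFP+ cells higher. The part of any of these in the members' differences was not tested.

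Dcc, the attracting netrin receptor, and Efna3, an A-class ephrin, were each more than 2-fold higher in GFP+ cells in 1 model and more than 2-fold lower in another (6.45% of members, against 3.61% of all genes), and were singled out after their values were seen. Dcc had 9, 57, 5, 26 and 29 reads in GFP+ cells of models A to E, against 0, 679, 0, 81 and 0 reads in GFP- cells. The GFP+ cells alone held reads of Dcc in A, C and E, while the GFP- cells held most of them in B and D. Efna3 had 81, 115, 18, 97 and 80 reads in GFP+ cells, against 33, 895, 19, 289 and 40 reads in GFP- cells. Its GFP- values were high in B and D, and its GFP+ values were the higher ones in A and E. Efna3 lies between Efna1 and Efna4 on chromosome 3, with gaps of 32.8 and 10.4 kb. Efna1 was higher in GFP+ cells in 1 of 5 models and Efna4 in 3 of 5.

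Other genes of these pathways were read from a list of 69 co-receptors, adaptors and effectors, of which 67 were tested. This list too was chosen with earlier results of these data known, so its shares are description only. At an unadjusted p under 0.05 there were 10 higher in GFP+ cells (14.9%, against 5.50% of all genes) and 2 lower (2.99%, against 3.49%), none with an adjusted p under 0.05 by edgeR. The smallest p among those higher were those of Pak1, a kinase downstream of Rac and Cdc42, Fyn, a Src family kinase, and Sdc3, a heparan sulphate proteoglycan of Schwann cells. Pak1 averaged 44.9 ± 10.02 CPM in GFP+ cells, against 33.3 ± 10.5 CPM in GFP- cells, a log2 difference of 0.43 ± 0.11. Fyn averaged 49.7 ± 11.6 CPM in GFP+ cells, against 39.5 ± 10.9 CPM in GFP- cells, a difference of 0.31 ± 0.08. Sdc3 varied most, with 82.1, 165, 8.31, 140.4 and 6.27 CPM in GFP+ cells of models A to E, against 27.8, 99.4, 6.16, 92.8 and 1.03 CPM in GFP- cells, a difference of 1.02 ± 0.27. All 3 were higher in 5 of 5 pairs, and DESeq2 called Sdc3 alone of the 67. On the lower side, the adaptor Crkl averaged 51.9 ± 7.44 CPM in GFP+ cells, against 60.0 ± 6.03 CPM in GFP- cells, a log2 difference of -0.25 ± 0.07. The scaffold Itsn1 averaged 106 ± 15.7 CPM in GFP+ cells, against 125 ± 12.6 CPM in GFP- cells, and Grip1, which binds ephrin-B tails, 3.75 ± 2.66 CPM in GFP+ cells, against 5.00 ± 3.92 CPM in GFP- cells. These 3 were lower in 5 of 5 pairs. Grip1, at an unadjusted edgeR p of 0.051, is not among the 2 counted above, and it had 4 reads in each library of model C. Between models, 39 of the 67 were called (58.2%, against 54.7% of all genes).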

How the data were processed

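The authors deposited raw read counts per gene, not normalized, 1 table per library of 46517 genes, with an unstranded count and 1 count per strand setting. Reads were processed with STAR 2.4.2.8 and build mm10, per the submitters' processing notes. The sources used here do not give the gene annotation or the library kit with its strandedness. Counts of the second strand column were used, which held 96.9% to 97.1% of the reads that the strand columns put in genes. The 4 summary lines (21.3% to 24.3% of reads) were left out. Multiply mapped reads, 5.99% to 9.74%, are counted apart, so genes with near-identical copies are uncertain. Symbols, coordinates and merged exon lengths came from GENCODE vM21, where 46005 identifiers matched and 512 did not. Ntn3 was not analysed here.

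Genes were filtered with filterByExpr, scaled with TMM and tested with edgeR 4.0.16 (R 4.3.3) by the quasi-likelihood F test, two-sided, with the tumour model as a block and Benjamini-Hochberg adjustment over 13986 genes. The model terms of the same fit gave the test between models. Standard errors come from the F values. The fitted biological coefficient of variation was 0.196. Pair differences used log2 CPM with a prior count of 2. The letters pair the libraries because same-lettered ones come from the same tumour model, and their deviations from each population's mean had correlations of 0.628 to 0.867. The fits were tested on simulated data. Alternatives were no block, RLE factors, library totals, no filter, at least 1 CPM in 5 libraries, DESeq2 1.42.0, limma 3.58.1 voom, unstranded counts and each pair left out. The members and lists were chosen with earlier results of these data known. Values in every library are given for the 8 smallest p of members in each comparison and the 8 highest mean RPKM. The pathway genes named are the 3 smallest p in each direction.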

Additional observations from a re-analysis of the deposited data

Results flagged for a closer look

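In 6 of 93 groups of 5 values, 1 value lay far from the other 4, where chance alone gives about 1 in 20. In model B these were Epha5 at 34.6 CPM in GFP+ cells, Efnb2 at 442 CPM in GFP- cells and Dcc at 30.7 CPM in GFP- cells. In model A, Unc5a stood apart in both populations, with 29.4 CPM in GFP+ cells, against 39.1 CPM in GFP- cells. For Ntn1 the log2 difference of model E, 0.33, lay apart from the other 4.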

How the results depend on the processing

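The fit without the replicate block, in place of the paired fit, gave 190 of 13986 genes at an unadjusted p under 0.05. It gave 1 of 31 members, the 1 higher and 0 lower. Without the low-count filter edgeR called 47 of 25762 genes between GFP+ and GFP- cells. At an unadjusted p under 0.05 that fit gave 1762 of these genes and 13 of 37 members, 5 higher and 8 lower. DESeq2 called 195 genes (1.39%) and 1 of 31 members (3.23%). Leaving out 1 pair gave 793 to 1477 genes at an unadjusted p under 0.05 (5.69% to 10.5%). It gave 2 to 11 members (6.67% to 35.5% of the 30 or 31 tested), 1 to 4 of them higher and 1 to 9 lower. Between models it gave 4038 to 7545 genes (28.6% to 53.5%) and 15 to 24 members (48.4% to 80%). Of 400 member differences recomputed, 381 kept their sign and stayed uncalled, 18 changed sign and 1 was newly called. Of the 31 members, 20 never changed sign, a count not made over all genes. With 1 pair left out, the log2 difference ran from -0.23 to 0.13 for Epha1, -0.19 to 0.041 for Epha3, -0.13 to 0.17 for Epha4, -0.23 to 0.084 for Epha7, -0.00089 to 0.14 for Ephb6, -1.19 to 0.040 for Efna3, -0.10 to 0.18 for Efna4, -0.10 to 0.34 for Ntn4, -0.036 to 0.61 for Unc5a and -0.39 to 0.040 for Unc5c. Epha4 was at -0.087 with no replicate block, -0.0088 with no filter and -0.048 with limma voom, Ntn4 at -0.026 and Unc5a at -0.072 with no replicate block, and Dcc at 3.30 with DESeq2 (adjusted p 0.675, against 0.659 to 1 over its alternatives). The causes were not tested. Dcc has no value without pair B or D, and Epha6 none at 1 CPM in 5 libraries, where each was below the filter. Scaling moved the median of all genes by at most 0.03.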
